A study of Mus musculus with 21 samples.

Results

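NRF2, encoded by Nfe2l2, is the transcription factor that switches on antioxidant and glutathione genes, and 43 genes of this program were followed in the mouse cecum across 4 diets that differed in broccoli powder. The genes were taken by symbol from the raw count table: the factor and its sensor Keap1, the enzymes that make, recycle and use glutathione, the thioredoxin system, and the classical NRF2 targets. Of 25361 gene identifiers in the table, 43 matched, and 3 of them (G6pdx, Gpx2 and Gsto1) were listed at 0 counts in all 21 libraries. That is reported only as a listing, since how reads were assigned to genes is not given in the sources used here. The other 40 genes all passed the filter on low counts and are described below.

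Messenger RNA was sequenced from the cecum, the blind sac where small and large intestine meet, of C57BL/6 mice, an inbred strain. The mice were 3 weeks old at the start, were fed a Total Western Diet for 6 weeks, and then received that diet for 3 more weeks with 2.5%, 1.0% or 0.5% broccoli powder (5 mice each) or with 0% (6 mice). All groups therefore share the Western-type diet, and neither the sex of the mice nor the glucosinolate content of the powder is given in the labels used. The question addressed is whether broccoli in a Western diet is followed by a change in host gene expression. Libraries were made from whole tissue, so fewer cells of a type and less RNA per cell cannot be told apart.

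Under resting conditions the protein Keap1 holds NRF2 and passes it to the Cul3 ubiquitin ligase for degradation. Electrophiles, among them isothiocyanates such as sulforaphane from broccoli, modify cysteines of Keap1, and NRF2 then accumulates, pairs with a small Maf protein and binds the antioxidant response element (ARE) near its target genes. Because NRF2 is controlled mainly through the stability of its protein, its activity is usually read from the messenger RNA of targets such as Nqo1, Gclc, Gclm, Hmox1, Txnrd1 and Srxn1. In the gut, these enzymes handle dietary electrophiles and oxidants at the epithelial surface.

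The ARE core was searched because it is the letter pattern through which NRF2 acts. The pattern TGACNNNGC, on both strands, was looked for in RefSeq promoter windows on GRCm38.p6 that run from 250 bases before to 50 bases after a gene start. An entry was present for 34 of the 40 genes, and Gclc, Gsr, Prdx6, Gsta4, Hmox1 and Abcc1 had none. The pattern was found in 9 of the 34 genes (26.5%), against 3781 of 27025 genes with an entry (13.99%). Over windows, 9 of 45 windows of these genes held it, against 4071 of 32851 windows in all (12.4%). Many known AREs lie farther from the start, so a match or its absence in this window is only a description. The 9 matches are printed with 10 flanking bases on each side, 5′ to 3′ on the strand that carries the pattern, with the 9 letters of the pattern in capitals.
Nfe2l2: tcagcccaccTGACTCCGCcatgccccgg
Gclm: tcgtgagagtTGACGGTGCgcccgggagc
Pgd: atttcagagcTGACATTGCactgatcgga
Txnrd1: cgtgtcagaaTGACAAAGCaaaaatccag
Srxn1: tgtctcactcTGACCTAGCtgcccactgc
Prdx1: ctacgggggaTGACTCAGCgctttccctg
Sod1: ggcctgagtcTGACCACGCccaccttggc
Gsta3: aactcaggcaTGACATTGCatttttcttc
Mgst1: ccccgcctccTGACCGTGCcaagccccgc

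These sites lie on the minus strand at chr2:75704885-75704913 (Nfe2l2), chr3:122245413-122245441 (Gclm), chr4:149166061-149166089 (Pgd), chr10:82859104-82859132 (Txnrd1), chr2:152105542-152105570 (Srxn1), chr4:116685456-116685484 (Prdx1), chr16:90220696-90220724 (Sod1) and chr6:138140461-138140489 (Mgst1). The Gsta3 site lies on the plus strand at chr1:21240454-21240482. The Pgd and Srxn1 matches begin 4 and 29 bases from the start of their own window's transcript, on the transcribed side, and the other 7 lie before that start. The sites of Pgd, Srxn1, Txnrd1 and Mgst1 lie within the gene's span in GENCODE, and the other 5 lie upstream of it. Only the Prdx1 match overlaps TGACTCA, the core bound by AP-1 factors, an overlap present in 149 of all windows (0.454%). Gsta3 and Pgd carry the same 9 letters, and the other 7 genes differ from them and from each other in the 3 free bases.

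The total count per library lay between 33132637 and 39675518 in the 2.5% group, 37327202 and 58594569 in the 1.0% group, 35057688 and 50757142 in the 0.5% group, and 28514263 and 42687431 in the 0% group. Levels are given as CPM, counts scaled by these totals with TMM factors. Markers of epithelium (8 of 8 detected, list means of 8.80 to 9.31 log2 CPM) and of large intestine (8 of 8) were abundant in every library, except for Hoxb13. That gene had a median of 0 and 343 reads over the 21 libraries together. Nearly all of these reads were in 1.0% replicate 5, where Hoxb13 had its highest value, 5.42 CPM. Small intestine and Paneth cell markers (10 of 10 detected) differed between libraries. Their list mean was 2.33 to 5.20 log2 CPM in 6 libraries (2.5% replicates 1 and 2, 1.0% replicate 1, 0.5% replicates 1 and 4, and 0% replicate 5) and at most 1.01 in the others. The summed level of that list was 323 to 414 CPM in the 2.5% group, 281 to 1342 CPM in the 1.0% group, 242 to 432 CPM in the 0.5% group and 194 to 848 CPM in the 0% group. One library, 1.0% replicate 5, had the highest large intestine list mean, 7.74 against 6.19 to 6.97 in the other 20. Its summed level of that list, 9790 CPM, lay within the range of the others (5838 to 10507 CPM). A mean of log values can be moved by 1 gene that is near 0 in most libraries. Hoxb13 is such a gene and was highest in this library, and its part in that mean was not tested. Blood markers (4 of 5 detected, Alas2 at 0) were low throughout, with a summed level of 3.91 to 6.00 CPM in the 2.5% group, below all controls at 6.46 to 7.99 CPM. Fat markers (6 of 6 detected) ranged over the 21 libraries from −1.31 to 5.66 in mean log2 CPM, the extremes both at 1.0%. The part of these lists in the results was not tested. Read counts per library were 1 to 33 for Gsta2, so that its values carry a large counting error, at least 51 for Gss and Gsta1 and at least 101 for the other 37 genes.

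Most of the program was well expressed in the cecum. Levels between genes are given as CPM per kilobase of exon (CPM per kb), averaged over the 21 libraries, and depend on a counting rule that is not given in the sources used here. Prdx6, a peroxiredoxin that reduces phospholipid peroxides, was the highest at 237 CPM per kb. It was followed by the iron storage chain Fth1 (140), the glutathione peroxidase Gpx1 (127), the ferritin light chain Ftl1 (120), the sulfiredoxin Srxn1 (113) and Nfe2l2 itself (113). In all, 10 of 40 genes were above 50 CPM per kb, and Txn1 (77.8), Gclc (67.3), Mgst3 (65.8) and Gstm1 (51.8) made up the rest of these. At the low end, Slc7a11 (0.549), Gss (0.479) and Gsta2 (0.226) were under 1 CPM per kb.

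**Figure D1:**
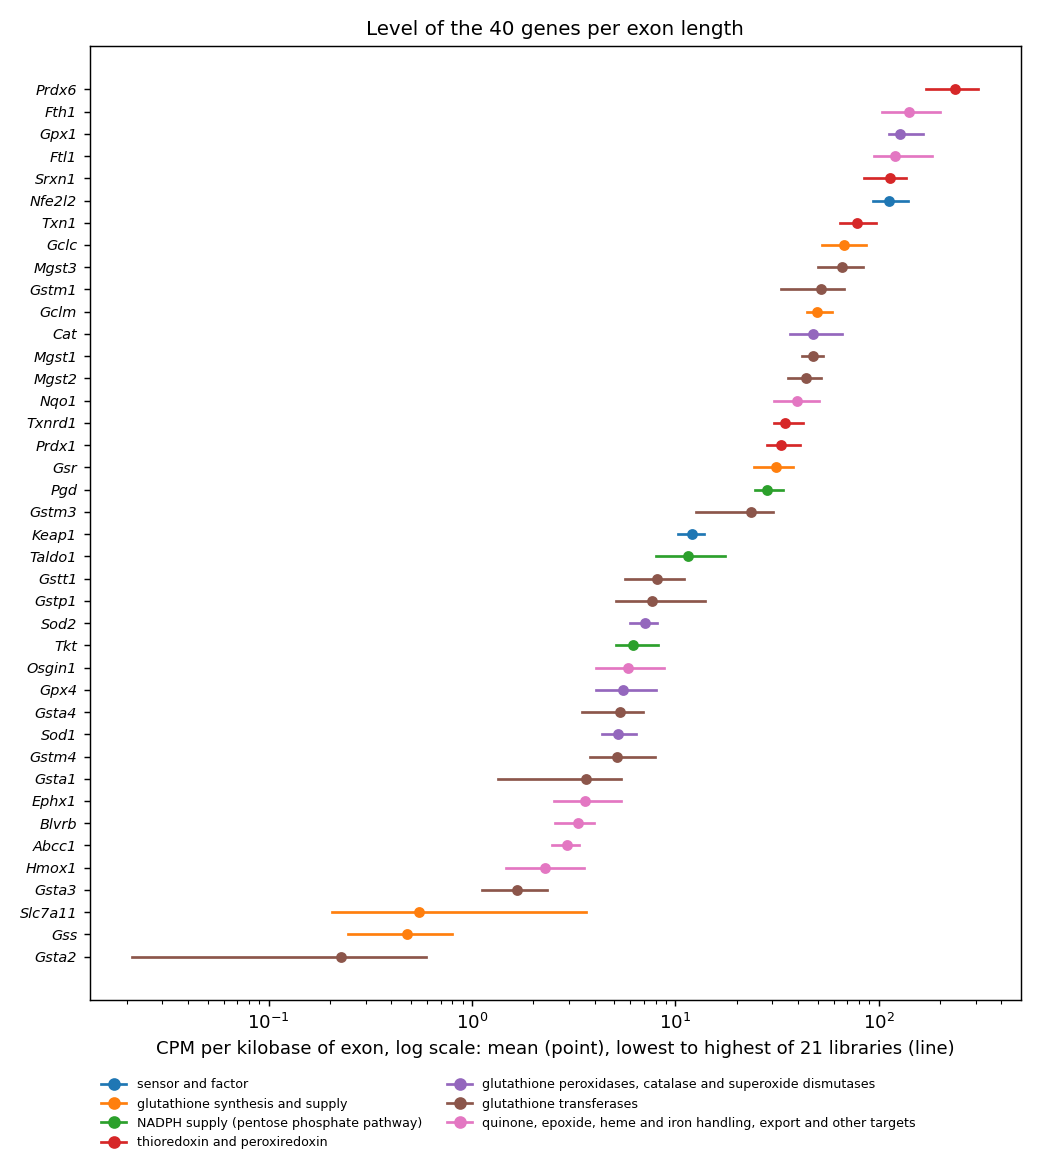
Mean level of each of the 40 genes over the 21 libraries in CPM per kb of exon, on a log axis, with the range over libraries as a line. Prdx6 is at the top with 237 CPM per kb, and Slc7a11, Gss and Gsta2 are below 1.

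No gene of the program passed the test in any comparison, and the differences between diets were small. In the 2.5% against 0% comparison 0 of 40 genes had an adjusted p under 0.05 by edgeR's quasi-likelihood test with Benjamini-Hochberg adjustment, against 17 of 15652 genes tested (0.109%). DESeq2 and limma voom also called 0 of the 40. At an unadjusted p under 0.05 there were 4 genes (Nqo1, Ephx1 and Gss higher, Gpx1 lower), which is 4 of 40 against 8.43% of all genes tested. With library totals in place of TMM scaling there were 0 higher and 1 lower, and without 2.5% replicate 2 or 0% replicate 5 there were 2 in all. Without 2.5% replicate 1 there were 5 higher and 1 lower. The fitted log2 change was above 0 for 25 of 40 genes, against 46.9% of all genes, with a median of 0.06 against −0.01 over all genes. Over all alternative fits 21 to 30 of 40 were above 0. There were 22 without 2.5% replicate 4 (median 0.02), 29 without 0% replicate 6 (median 0.08) and 30 without 2.5% replicate 2 (median 0.06). The smallest adjusted p was 0.496, for Nqo1. In no gene did all 5 libraries at 2.5% lie above all 6 libraries at 0%, which occurred in 0.454% of genes tested, nor below them (0.211%).

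The fit bounds these differences. The 95% interval of the log2 change at 2.5% lay within −1 and 1, a change of 2-fold either way, for 38 of 40 genes, the exceptions being Gsta2 and Slc7a11 (88.3% of all genes). It lay within −0.5 and 0.5 for 30 of 40 genes (65.1% of all genes), and within −0.25 and 0.25 for 8 (23.9%). The 10 genes whose interval passed 0.5 in either direction were Ephx1, Gpx4, Gss, Gsta1, Gsta2, Gsta3, Gstm3, Hmox1, Osgin1 and Slc7a11.

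**Figure D2:**
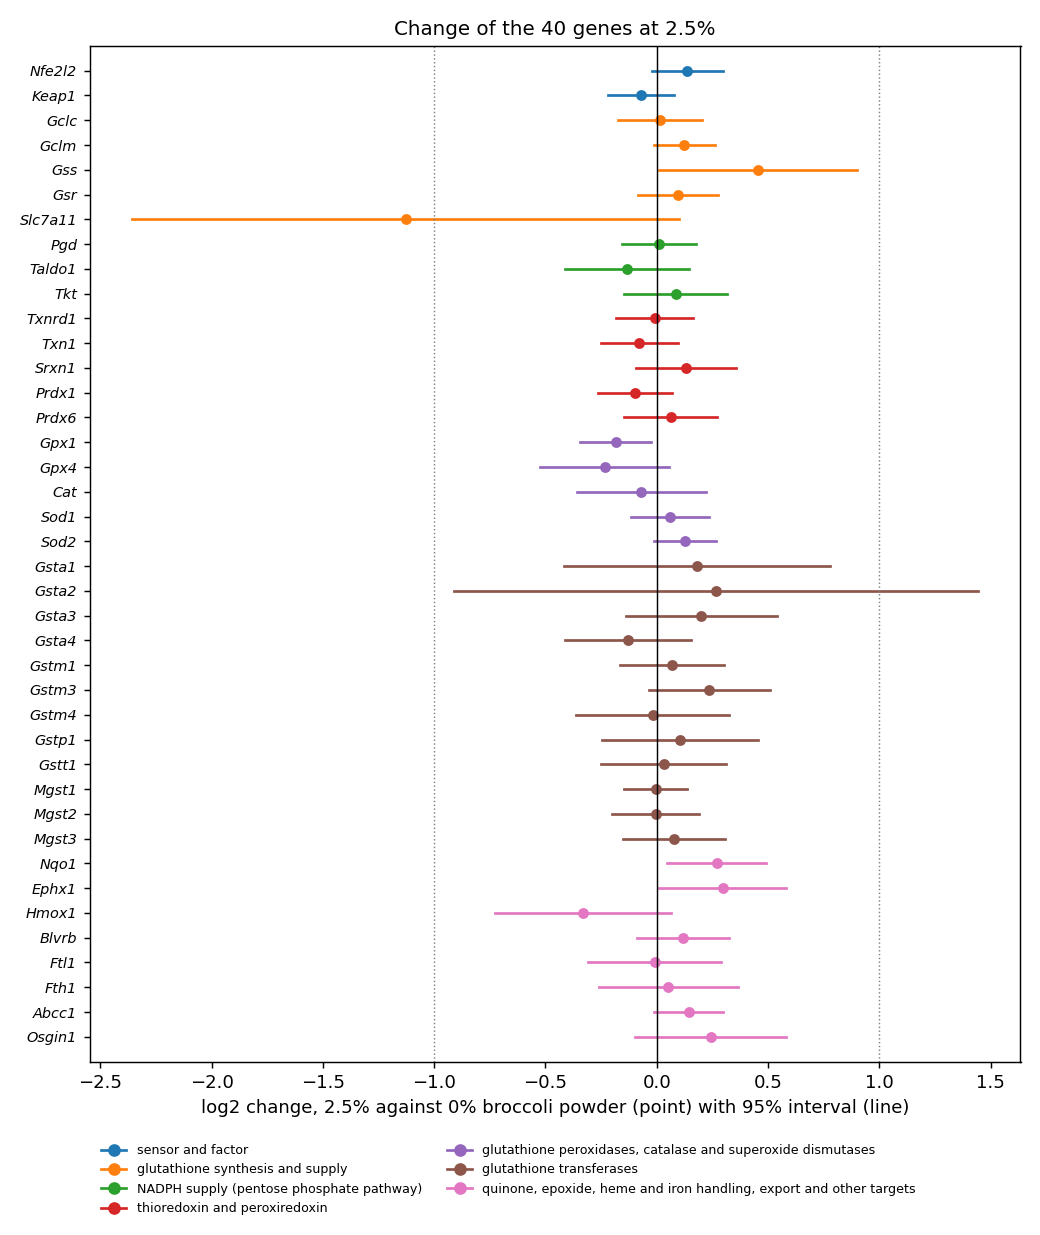
Log2 change at 2.5% against 0% broccoli powder (horizontal axis) for each of the 40 genes, with its 95% interval from the edgeR fit. The points lie on both sides of 0, with 25 above it, and the intervals of Slc7a11 and Gsta2 are the widest.

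The factor and its sensor come first. Nfe2l2 (chr2:75675513-75704641, minus strand) averaged 406 ± 38.8 CPM at 0% (SD, n = 6), 444 ± 55.8 at 0.5%, 416 ± 24.8 at 1.0% and 447 ± 13.7 at 2.5% (SD, n = 5 each). The 5 libraries at 2.5% had 435 to 470 CPM and the 6 libraries at 0% had 354 to 468 CPM, so that the groups overlapped and the 0% libraries reached lower. The change at 2.5% was a log2 of 0.14 ± 0.08 (SE, adjusted p = 0.635 by edgeR). Keap1 (chr9:21229730-21239361, minus strand), the sensor that targets NRF2 for degradation, averaged 53.7 ± 4.83 CPM at 2.5% and 56.4 ± 3.77 CPM at 0%. Its log2 change was −0.07 ± 0.07 (adjusted p = 0.800). Exons of Keap1 overlap those of Gm16754 on the other strand, and whether strand was used in counting is not given in the sources used here.

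Glutathione is made by glutamate-cysteine ligase, with the catalytic subunit Gclc and the modifier subunit Gclm, and by glutathione synthetase, Gss. The cystine importer Slc7a11 supplies the cysteine, and glutathione reductase, Gsr, recycles the oxidised form. At 2.5%, 4 of these 5 genes had a log2 change above 0, with a median of 0.09, and none was called. Gclm (chr3:122245557-122270732, plus strand) had 289, 309, 330, 363 and 319 CPM in the 5 libraries at 2.5%, and a lowest, median and highest value of 280, 300 and 305 CPM at 0%. All but the first library at 2.5% lay above all controls. The log2 change of Gclm was 0.12 ± 0.07 (95% interval −0.01 to 0.26, adjusted p = 0.632). It was 0.077 without replicate 4 at 2.5%, and 0.20 with the 6 libraries high in small intestine markers left out (adjusted p = 0.288). Exons of Gclm overlap Gm6061 and Gm17494.

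Gclc (chr9:77754535-77794485, plus strand) had 241 to 259 CPM at 2.5% and 209 to 291 CPM at 0%. The libraries at 2.5% thus lay inside the range of the controls, and the log2 change was 0.01 ± 0.09 (95% interval −0.18 to 0.20, adjusted p = 0.976). Its highest mean was at 0.5%, where the libraries had 303, 257, 327, 242 and 272 CPM against 209 to 291 CPM at 0%. There 2 of 5 libraries were above all controls, and the log2 change was 0.20 ± 0.09 (unadjusted p = 0.0372, adjusted p = 0.685 by edgeR). The pair of subunits thus differed in which diet had the highest mean, 1.0% for Gclm (325 ± 28.0 CPM) and 0.5% for Gclc (280 ± 34.6 CPM), and no test was made of that difference.

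Gss (chr2:155563181-155592810, minus strand) was a low gene. It had 2.40, 3.53, 2.38, 3.00 and 4.69 CPM at 2.5%, and its lowest, median and highest CPM at 0% were 1.44, 2.44 and 3.27. Only 2 libraries at 2.5% exceeded all controls, and the log2 change was 0.45 ± 0.22 (95% interval 0.01 to 0.90, unadjusted p = 0.0460, adjusted p = 0.579), or 0.27 without replicate 5 at 2.5%. Its exons overlap those of Acss2, Gssos1 and Gssos2 on the other strand, so its counts are uncertain where strand is not known to have been used.

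For Slc7a11 (chr3:49892526-50443614, minus strand) 1 control library set the result. The libraries at 2.5% had 6.56, 5.38, 6.58, 4.81 and 6.13 CPM, and those at 0% had 3.95, 7.04, 4.43, 5.31, 50.5 and 5.75 CPM, with the 20 libraries other than the one at 50.5 CPM ranging from 2.86 to 8.81 CPM. That library, 0% replicate 5, is also 1 of the 6 high in small intestine markers. The group means were 5.89 ± 0.775 CPM at 2.5% and 12.8 ± 18.5 CPM at 0%, or 5.30 ± 1.21 CPM over the 5 other controls. Log2 changes were −1.24 ± 0.59 at 0.5%, −1.28 ± 0.58 at 1.0% and −1.13 ± 0.58 at 2.5% (unadjusted p = 0.0485, 0.0423 and 0.0698). Without 0% replicate 5 they were 0.04 at 0.5%, 0.002 at 1.0% and 0.16 at 2.5%. The part of the small intestine markers in that library's value was not tested.

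**Figure D3:**
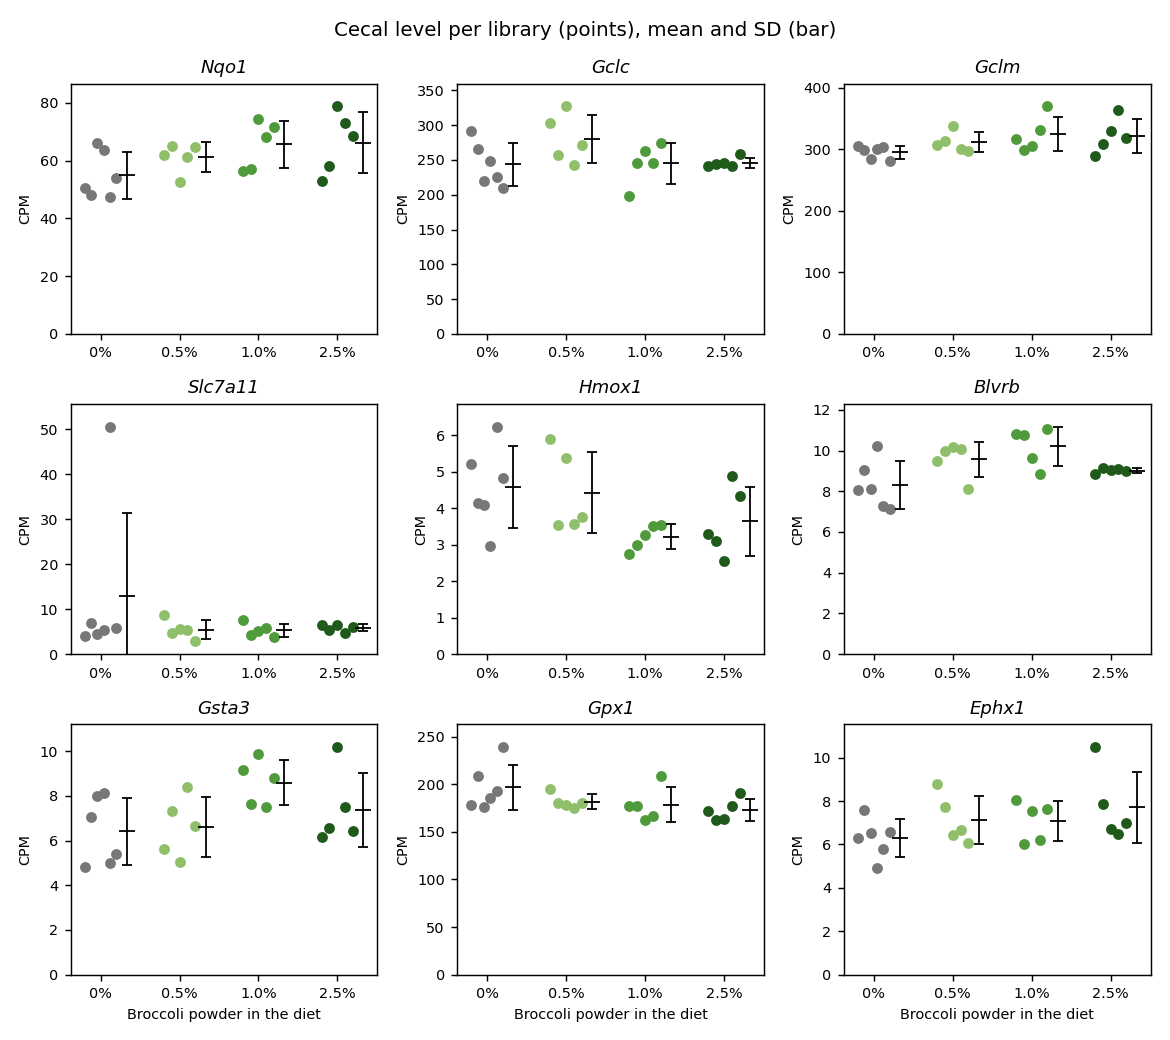
CPM of 9 genes in each library (points) by diet, with the mean and SD per diet as a bar. The groups overlap in every panel, and in the Slc7a11 panel 1 library at 0% stands at 50.5 CPM, where the lower arm of the SD bar stops at the axis.

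NADPH, the reducing power of this system, comes in part from the pentose phosphate pathway. Its enzymes Pgd, Taldo1 and Tkt were measured, with G6pdx listed at 0. Pgd averaged 178 ± 18.2 CPM at 2.5% and 177 ± 15.8 CPM at 0%. Tkt averaged 46.6 ± 6.41 CPM at 2.5% and 43.9 ± 3.95 CPM at 0%, and Taldo1 23.7 ± 1.19 CPM at 2.5% and 25.97 ± 6.73 CPM at 0%. All 3 differences were smaller than the SD of at least 1 of the groups, and the smallest adjusted p among them was 0.804.

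The thioredoxin branch reduces oxidised protein thiols. Txnrd1 (chr10:82833951-82897712, plus strand), thioredoxin reductase and a classical NRF2 target, had 215, 221, 254, 275 and 264 CPM at 2.5% and a lowest, median and highest value of 219, 237 and 299 CPM at 0%. The groups overlapped almost fully, and the log2 change was −0.01 ± 0.08 (95% interval −0.18 to 0.16, adjusted p = 0.983). Srxn1 (chr2:152105516-152111376, plus strand), which restores overoxidised peroxiredoxins, averaged 335 ± 32.1 CPM at 2.5% and 307 ± 52.7 CPM at 0%, a log2 change of 0.13 ± 0.11 (adjusted p = 0.758), or 0.069 without 0% replicate 4. With the 6 libraries high in small intestine markers left out, the log2 change was 0.16 for Txnrd1 (adjusted p = 0.431) and 0.24 for Srxn1 (adjusted p = 0.414). Thioredoxin itself, Txn1, averaged 78.3 ± 3.01 CPM at 2.5% and 82.6 ± 8.41 CPM at 0%. Of the peroxide-reducing peroxiredoxins, Prdx1 averaged 96.9 ± 3.61 CPM at 2.5% and 104 ± 11.3 CPM at 0%, and Prdx6 1118 ± 71.3 CPM at 2.5% and 1071 ± 172 CPM at 0%. In this group of 5 genes 2 log2 changes were above 0 and 3 below, with a median of −0.01.

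Gpx1 (chr9:108338903-108340343, plus strand), the main cytosolic glutathione peroxidase, was the one gene with a lower level at 2.5% at an unadjusted p under 0.05 (background 3.66% of all genes tested). It had 172, 162, 163, 177 and 191 CPM at 2.5%, and a lowest, median and highest value of 177, 189 and 239 CPM at 0%. Of the 5 libraries at 2.5%, 3 lay below all controls. Its log2 change was −0.19 ± 0.08 (95% interval −0.35 to −0.02, unadjusted p = 0.0261, adjusted p = 0.521 by edgeR), or −0.12 without 0% replicate 6, the control at 239 CPM. Its mean was 197 ± 23.7 CPM at 0%, 182 ± 7.77 at 0.5%, 178 ± 18.3 at 1.0% and 173 ± 11.7 at 2.5%. The fitted slope was −0.07 ± 0.03 log2 per 1% broccoli powder (unadjusted p = 0.0356, adjusted p = 0.661).

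The other enzymes that remove peroxide and superoxide showed no common direction. Gpx4, which reduces lipid hydroperoxides in membranes, averaged 8.44 ± 1.19 CPM at 2.5% and 9.95 ± 2.03 CPM at 0%. Catalase, Cat, averaged 119 ± 30.2 CPM at 2.5% and 124 ± 22.3 CPM at 0%. The cytosolic superoxide dismutase Sod1 averaged 21.4 ± 1.56 CPM at 2.5% and 20.6 ± 2.50 CPM at 0%. The mitochondrial enzyme Sod2 had 63.6 to 81.5 CPM at 2.5% and 62.9 to 72.7 CPM at 0%, so that 4 of 5 libraries were above all controls and the other was near the lowest of them. Of the 5 genes measured in this group, 2 were above 0 in log2 change and 3 below, with a median of −0.07, and none was called.

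Glutathione transferases join glutathione to electrophiles, and 12 of the 13 listed were measured. At 2.5% their log2 changes were above 0 in 8 and below in 4, ranging from −0.13 to 0.27 with a median of 0.07. Gsta1, Gsta2 and Gsta4 lie with Gclc within 601 kb of chromosome 9, and Gstm1, Gstm3 and Gstm4 within 81.2 kb of chromosome 3. Alpha and mu class genes have near-identical copies, and Gstp1 has a close copy in Gstp2, so reads could be split among them and single values are uncertain. Gsta3 (chr1:21240589-21265661, plus strand) had its highest mean at 1.0%, where the libraries had 9.15, 7.63, 9.89, 7.49 and 8.82 CPM against a lowest, median and highest of 4.83, 6.23 and 8.13 CPM at 0%. There 3 of 5 libraries were above all controls, with a log2 change of 0.42 ± 0.16 (unadjusted p = 0.0160, adjusted p = 0.999 by edgeR). At 2.5% Gsta3 averaged 7.36 ± 1.66 CPM, against 6.41 ± 1.505 CPM at 0%.

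Gstm3 had a mean of 27.3 ± 5.53 CPM at 0%, 32.9 ± 1.97 at 0.5%, 31.7 ± 4.87 at 1.0% and 32.1 ± 5.01 at 2.5%. Its log2 change over the mean of the 3 broccoli diets against 0% was 0.24 ± 0.11 (unadjusted p = 0.0327, adjusted p = 0.722), or 0.13 without 0% replicate 5. The control range of 16.6 to 31.3 CPM is widened at its low end by 0% replicate 5, the library high in small intestine markers; the next lowest control had 26.7 CPM. The microsomal transferases were more abundant and closer between diets. Mgst2 averaged 162 ± 19.9 CPM at 2.5% and 163 ± 22.3 CPM at 0%, and Mgst1 95.9 ± 9.07 CPM at 2.5% and 96.2 ± 6.44 CPM at 0%. Mgst3 averaged 74.2 ± 7.22 CPM at 2.5% and 70.3 ± 12.7 CPM at 0%.

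Nqo1 (chr8:107388225-107403206, minus strand), the quinone reductase used most widely as a readout of NRF2, had the smallest p of the program at 2.5%. The libraries had 52.8, 58.0, 78.7, 72.9 and 68.7 CPM at 2.5% and 50.6, 47.9, 66.1, 63.6, 47.3 and 53.8 CPM at 0%. Replicates 3, 4 and 5 at 2.5% lay above all controls, and replicates 1 and 2 lay among them. Its log2 change was 0.27 ± 0.11 (95% interval 0.05 to 0.49, unadjusted p = 0.0192, adjusted p = 0.496). At 1.0% the libraries had 56.5, 57.1, 74.3, 68.1 and 71.7 CPM, again with 3 of 5 above all controls, and the log2 change was 0.26 ± 0.11 (unadjusted p = 0.0258, adjusted p = 0.999). At 0.5% the range was 52.5 to 65.2 CPM, with no library above all controls.

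The means of Nqo1 thus ran from 54.9 ± 8.11 CPM at 0% through 61.1 ± 5.13 at 0.5% and 65.5 ± 8.29 at 1.0% to 66.2 ± 10.7 at 2.5%. Its slope was 0.10 ± 0.04 log2 per 1% broccoli powder (unadjusted p = 0.0299, adjusted p = 0.645), and the change over the mean of the 3 broccoli diets was 0.23 ± 0.09 (adjusted p = 0.695). The libraries at 2.5% that were lower in Nqo1, replicates 1 and 2, are those high in small intestine markers, with list means of 2.49 and 2.33 log2 CPM against 0.19 to 0.65 in replicates 3 to 5. The lowest control, 0% replicate 5, had a list mean of 4.55, and the lowest library at 1.0%, replicate 1, had 5.20. Other libraries differed from this. Control replicates 1 and 2 had 50.6 and 47.9 CPM of Nqo1 with list means of 0.17 and 0.78. At 0.5%, replicates 1 and 4, high in these markers, had 61.9 and 61.1 CPM, and the lowest, replicate 3, had a list mean of 0.99. With the 6 libraries high in these markers left out, the log2 change of Nqo1 at 2.5% was 0.38 (adjusted p = 0.142) and the slope 0.15 (adjusted p = 0.129). The part of these markers in the level of Nqo1 was not tested.

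Of the other detoxifying and exporting genes, Ephx1 (chr1:180976210-181020904, minus strand), the microsomal epoxide hydrolase, had 10.5, 7.87, 6.74, 6.50 and 6.999 CPM at 2.5% and a lowest, median and highest of 4.93, 6.43 and 7.57 CPM at 0%. Only replicates 1 and 2 were above all controls, the opposite libraries to those high in Nqo1. Its log2 change was 0.30 ± 0.14 (95% interval 0.01 to 0.58, unadjusted p = 0.0434, adjusted p = 0.571), and it was 0.16 without replicate 1 at 2.5%. Replicates 1 and 2 are those high in small intestine markers, and with the 6 such libraries left out the log2 change was 0.08 (adjusted p = 0.866 by edgeR). Exons of Ephx1 overlap those of Gm36961 on the same strand, so its counts are uncertain. Abcc1 (chr16:14361558-14475737, plus strand), which exports glutathione conjugates, was highest at 0.5% with 49.6, 45.8, 44.6, 46.5 and 50.8 CPM, against 37.1 to 46.9 CPM at 0%. Its log2 change there was 0.20 ± 0.08 (unadjusted p = 0.0129, adjusted p = 0.675), with 2 of 5 libraries above all controls. At 2.5% Abcc1 averaged 45.5 ± 4.90 CPM, against 41.2 ± 3.35 CPM at 0%. Osgin1, an oxidative stress growth inhibitor, averaged 17.6 ± 4.94 CPM at 2.5% and 14.9 ± 1.91 CPM at 0%.

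Heme and iron handling gave values in both directions. Hmox1 (chr8:75093621-75100589, plus strand), heme oxygenase and a textbook NRF2 target, had 3.31, 3.10, 2.56, 4.90 and 4.34 CPM at 2.5% and 5.22, 4.14, 4.10, 2.97, 6.24 and 4.83 CPM at 0%. The groups overlapped, with 1 library at 2.5% below all controls, and the log2 change was −0.33 ± 0.19 (95% interval −0.73 to 0.06, adjusted p = 0.644). At 1.0% it had 2.76 to 3.55 CPM, the narrowest range of the 4 diets, and a log2 change of −0.51 ± 0.19 (unadjusted p = 0.0140, adjusted p = 0.999). With the 6 libraries rich in small intestine markers left out, the log2 change of Hmox1 was −0.11 at 2.5% and −0.35 at 1.0%.

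Blvrb (chr7:27447978-27466144, plus strand), a biliverdin and flavin reductase, had its highest mean at 1.0%. It had 10.8, 10.8, 9.61, 8.83 and 11.1 CPM at 1.0% and a lowest, median and highest of 7.14, 8.07 and 10.2 CPM at 0%, with 3 of 5 libraries above all controls. The log2 change was 0.30 ± 0.10 (95% interval 0.09 to 0.50), and its unadjusted p of 0.00629 was the smallest of the 40 genes in any dose comparison (adjusted p = 0.999). At 2.5% the 5 libraries lay between 8.84 and 9.12 CPM, inside the control range. Hmox1 and Blvrb were also the 2 genes with an unadjusted p under 0.05 in the test of any difference among the 4 diets (0.0494 and 0.0402), 2 of 40 against 6.41% of all genes tested. There were none of the 40 without 0% replicate 5 or without 0.5% replicate 3, and 7 with library totals. The ferritin chains, which store iron, averaged 472 ± 72.9 CPM (Fth1) and 152 ± 20.9 CPM (Ftl1) at 2.5%, against 455 ± 113 and 153 ± 37.6 CPM at 0%. Ferritin genes have many processed pseudogenes, and Ftl1 overlaps Gm10252 on the other strand, so these counts are uncertain.

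**Figure D4:**
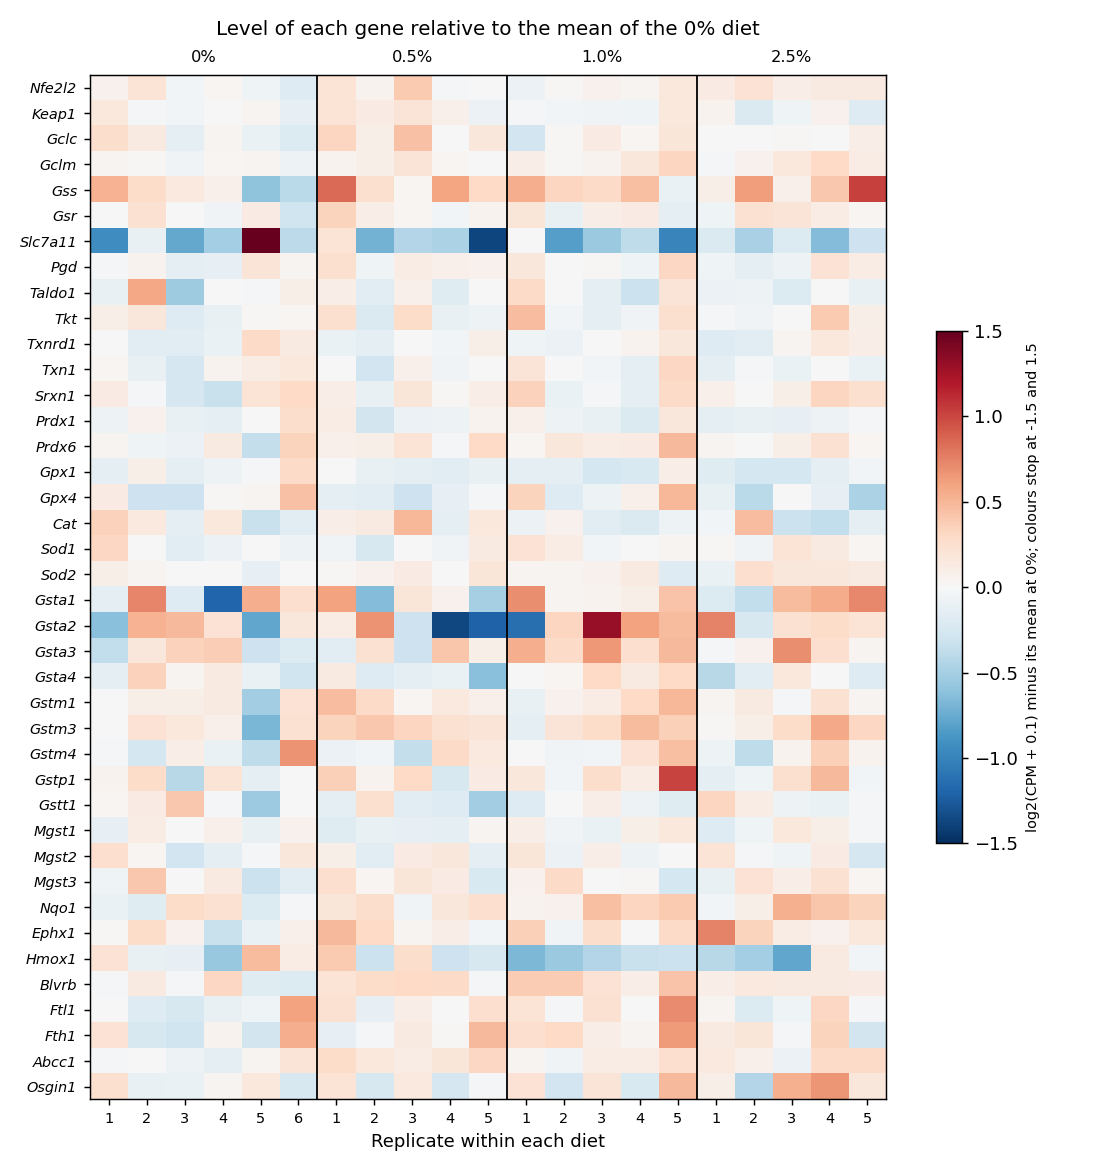
Level of the 40 genes (rows, by role) in each of the 21 libraries (columns, by diet), as log2(CPM + 0.1) minus the gene's mean at 0%, with colours stopping at −1.5 and 1.5. No diet forms a block of one colour, and 1.0% replicate 5 is higher than its group in several rows.

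At 1.0% broccoli powder 0 of 40 genes were called by edgeR, DESeq2 or limma voom, as 0 of 15652 genes tested were by edgeR (0%). At an unadjusted p under 0.05 there were 5 of 40, against 3.18% of all genes tested. Of these, 3 were higher (Blvrb, Gsta3 and Nqo1, background 1.76%) and 2 lower (Hmox1 and Slc7a11, background 1.42%). There were 8 in all without 1.0% replicate 1 or without 0% replicate 6. In no gene did all libraries at 1.0% lie above all controls (0.134% of all genes) or below them (0.0447%). The log2 change was above 0 for 32 of 40 genes, against 49.4% of all genes, with a median of 0.09 against −0.002. By role, 11 of 12 glutathione transferases were above 0 (median 0.16) and 7 of 8 genes of the quinone, heme, iron and export group (median 0.20). Library 1.0% replicate 5 had the largest total count. Its large intestine list mean was the highest, but its summed level of that list, 9790 CPM, lay within the range of the others. This library held the highest value of all 21 libraries in 10 of the 40 genes. Without it, 28 of 40 genes were above 0, with a median of 0.06. Over all alternative fits 28 to 35 were above 0.

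At 0.5% 0 of 40 genes were called by edgeR, DESeq2 or limma voom, against 1 of all genes tested by edgeR (0.00639%). At an unadjusted p under 0.05 there were 3 of 40 (Abcc1 and Gclc higher, Slc7a11 lower), against 7.14% of all genes (3.26% higher and 3.88% lower). With library totals there were 0 higher and 3 lower, and without 0% replicate 2 there were 5 higher and 1 lower. All libraries at 0.5% were above all controls in none of the 40 (0.23% of all genes), and below them in none (0.275%). The log2 change was above 0 for 24 of 40 genes, against 49.2% of all genes, with a median of 0.05 against −0.003. That median was 0.02 without 0% replicate 3, 0.03 without 0.5% replicate 1 and 0.08 without the animals numbered above 70. Over all alternative fits 14 to 27 of 40 were above 0. The glutathione transferases were split, with 6 above and 6 below 0. The 3 dose comparisons share the 6 control libraries, so values that recur across doses are not independent of each other.

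Taken over the doses as a slope per 1% broccoli powder, 0 of 40 genes were called by edgeR, DESeq2 or limma voom, against 0.147% of all genes tested by edgeR. At an unadjusted p under 0.05 there were 2 of 40, against 7.32% of all genes. These were Nqo1 with a positive slope (background 4.21%) and Gpx1 with a negative one (background 3.11%). Slopes were above 0 in 25 of 40 genes, against 46.9% of all genes. The 95% interval of the slope lay within −0.25 and 0.25 log2 per 1% for 35 of 40 genes (76.6% of all genes). For the mean of the 3 broccoli diets against 0%, 0 of 40 genes were called by any of the 3 tools, as 0% of all genes tested were by edgeR. At an unadjusted p under 0.05 there were 8 of 40, against 6.58% of all genes, 6 of them higher (3.07%) and 2 lower (3.51%). Library totals gave 1 higher and 3 lower. There were 2 higher and 1 lower without 0% replicate 5, and 3 higher and 2 lower without 0% replicate 1. In all, 28 of 40 were above 0, against 48.9% of all genes. The 8 genes with an unadjusted p under 0.05 included Slc7a11, Nqo1 and Gstm3. The others were Blvrb (0.21 ± 0.08), Abcc1 (0.15 ± 0.06), Gpx1 (−0.15 ± 0.06), Gss (0.37 ± 0.18) and Gclm (0.11 ± 0.05). Adjusted p by edgeR ran from 0.691 to 0.751 over the 8. Gpx1 was at −0.083 without 0% replicate 6, and Gss at 0.18 with the 6 libraries rich in small intestine markers left out. In the test of any difference among the 4 diets 0 of 40 were called by the 3 tools, against 0.0256% of all genes by edgeR.

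The median spread of the 40 genes between mice was close to that of all genes tested, a comparison not matched for expression level. The SD of log2 CPM over the 21 libraries had a median of 0.200 for the 40 genes and 0.209 for all genes tested, and it was under 0.25 for 28 of 40 genes (59.9% of all genes). The highest diet mean was a median of 1.14 times the lowest, and under 1.5 times in 38 of 40 genes, the exceptions being Slc7a11 (2.42) and Gsta2 (2.01). Between single libraries, the highest was a median of 1.73 times the lowest.

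Other genes of the pathway were taken from 5 further lists: regulators of NRF2, other NRF2-linked enzymes and transporters, further glutathione transferases and peroxidases, further thioredoxin genes, and glutathione breakdown. Of 72 genes listed, 69 were tested. At 2.5% 40 had a log2 change above 0 and 29 below, with a median of 0.04 against −0.01 over all genes. None was called by edgeR at 2.5% (smallest adjusted p = 0.192), and 12 had an unadjusted p under 0.05, 11 higher and 1 lower, against 4.77% and 3.66% of all genes. At 1.0% 49 of 69 were above 0 and at 0.5% 39 of 69, also with none called.

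Among the regulators, Maff, a small Maf protein that can pair with NRF2, had 34.8, 32.5, 65.1, 92.3 and 79.0 CPM at 2.5% and 24.7 to 41.3 CPM at 0%. Sqstm1, the p62 protein that binds Keap1 and is itself an NRF2 target, had 170, 154, 259, 349 and 286 CPM at 2.5% and 145 to 211 CPM at 0%. In both genes replicates 3, 4 and 5 stood above all controls and replicates 1 and 2 among them. Log2 changes were 0.86 ± 0.23 for Maff (adjusted p = 0.237) and 0.50 ± 0.16 for Sqstm1 (adjusted p = 0.372). Cul3, the ligase scaffold that ubiquitinates NRF2 through Keap1, had 68.2 to 80.3 CPM at 2.5% and 59.9 to 68.15 CPM at 0%. All 5 libraries at 2.5% lay above all controls, as in 0.454% of all genes tested. The lowest of them, replicate 1, did so only narrowly, at 68.17 CPM against 68.15 CPM in the highest control. The log2 change of Cul3 was 0.19 ± 0.06 (adjusted p = 0.368).

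The same 3 libraries, replicates 3 to 5 at 2.5%, were the highest of all 21 in a list of 12 immediate early genes such as Fos, Jun and Atf3. The list mean was 5.57, 5.69, 6.49, 6.88 and 6.66 log2 CPM in replicates 1 to 5 at 2.5%, against 5.67 to 6.31 at 0% and 5.26 to 6.25 at the other doses. All 12 genes of the list were detected, and its summed level was 1902 to 3883 CPM in the 2.5% group, 1918 to 2792 CPM in the 1.0% group, 1986 to 2684 CPM in the 0.5% group and 2054 to 2344 CPM in the 0% group. These libraries are also those higher in Nqo1 and low in small intestine markers. With the 6 libraries rich in small intestine markers left out, a comparison added after the data were seen, Maff rose by 1.23 log2 (adjusted p = 0.00195 by edgeR) and Sqstm1 by 0.77 (adjusted p = 0.00302). That comparison sets these 3 libraries against 5 controls, and the part of the immediate early genes and of the small intestine markers in it was not tested.

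**Figure D5:**
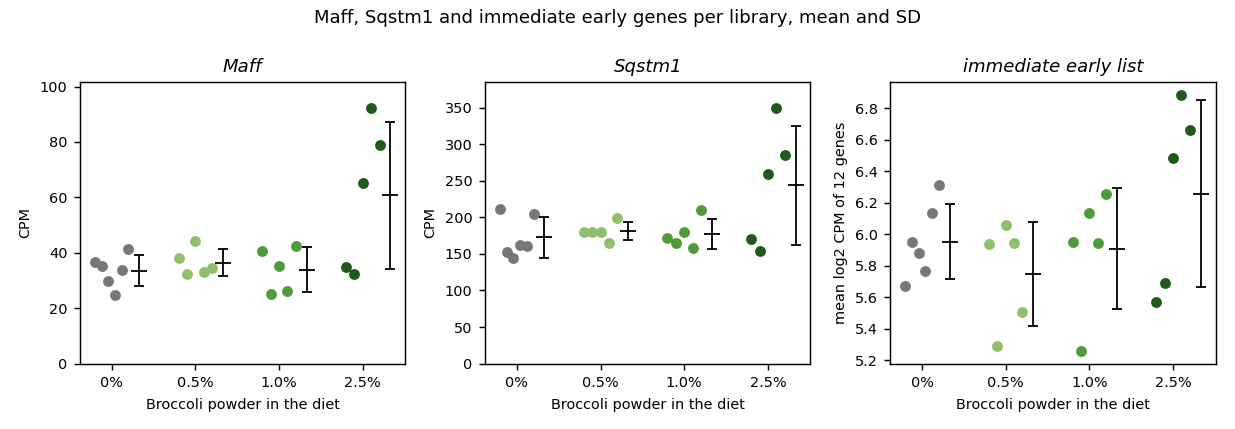
CPM of Maff and of Sqstm1, and the mean log2 CPM of the 12 immediate early genes, in each library (points) by diet, with the mean and SD per diet. In all 3 panels, 3 of the 5 libraries at 2.5% stand above every control, with Maff at 65.1 to 92.3 CPM against at most 41.3 CPM at 0%.

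Among enzymes outside the 40, the carbonyl reductases Cbr1 and Cbr3 had log2 changes of 0.30 ± 0.10 (adjusted p = 0.368) and 0.53 ± 0.21 (adjusted p = 0.490) at 2.5%. In each of them 4 of 5 libraries were above all controls. The metallothionein Mt2, which binds metals, had 0.74 ± 0.35 (adjusted p = 0.564), with values of 0.671 to 2.87 CPM at 2.5% and 0.478 to 1.34 CPM at 0%. Its log2 change was 0.31 without replicate 1 at 2.5%, the library at 2.87 CPM, and 0.46 with the 6 libraries left out. The mu class transferase Gstm5 had 5.65, 3.99, 7.09, 5.83 and 4.94 CPM at 2.5% and 3.47 to 4.56 CPM at 0%. Its log2 change of 0.51 ± 0.14 had the smallest p of the 69 genes (unadjusted p = 0.000922, adjusted p = 0.192), with 4 of 5 libraries above all controls. Gpx7, a peroxidase of the endoplasmic reticulum, was the one lower gene, at −0.49 ± 0.19 (adjusted p = 0.500) and 4 of 5 libraries below all controls.

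Of the thioredoxin genes, Txnip, which binds and inhibits thioredoxin, had a log2 change of 0.28 ± 0.12 (adjusted p = 0.516) and the secretory pathway peroxiredoxin Prdx4 one of 0.34 ± 0.15 (adjusted p = 0.550). For Txnip the value was 0.16 without replicate 3 at 2.5% and 0.45 with the 6 libraries left out (adjusted p = 0.0665). Cth, which makes cysteine from cystathionine, had 0.23 ± 0.10 (adjusted p = 0.546), and Oplah, the oxoprolinase of glutathione turnover, 0.31 ± 0.14 (adjusted p = 0.550). None of these values passed the test over all genes.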

How the data were processed

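Messenger RNA of the cecum of 21 mice was measured by RNA sequencing, with 5 libraries at 2.5%, 5 at 1.0%, 5 at 0.5% and 6 at 0% broccoli powder, grouped by the diet in the labels. The authors deposited raw counts per gene in a single table, whose values are whole numbers. Stranded mRNA libraries were ligated from column-purified RNA, per the labels' protocols. The genome build is mm10, per the submitters' processing notes. Aligner, counter, annotation and strand use are not given in the labels or file. Each library carries its own animal number and was taken as a separate mouse, although no cage is named. The labels' animal numbers do not repeat across diets.

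Symbols, coordinates and exon lengths came from GENCODE M21 (25268 of 25361 identifiers matched) and promoter windows from RefSeq on GRCm38.p6. The count test was edgeR 4.0.16 under R 4.3.3 (TMM scaling, filterByExpr by diet, robust quasi-likelihood test) in 1 fit of 21 libraries. All 15652 genes kept were tested and adjusted together by Benjamini-Hochberg, two-sided, with calls at an adjusted p under 0.05. The slope used dose as a number. CPM are TMM-scaled, list means of log2 CPM use a prior count of 2, and intervals are log2 change ± SE times the t quantile at 95%. Genes with per-library values or fold changes were those with an unadjusted p under 0.05 and a set of 9 genes (the factor, its sensor and classical targets). Up to 4 genes of each further list at 2.5% were added, and the rest are given by means or ranges. The ranges of Sod2 were picked out after its values were seen. Alternatives were RLE scaling, library totals, no filter, DESeq2 1.42.0, limma 3.58.1 voom, the 2 diets alone, leaving out 3 animals numbered above 70, each library, or the 6 libraries high in small intestine markers (chosen after seeing the data), and dose as a rank. The fit was checked on simulated counts. The 43 genes and the further lists were chosen with earlier results of these data known. Marker lists name the other cell types the tissue could hold.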

Additional observations from a re-analysis of the deposited data

Results flagged for a closer look

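In each diet, the highest and lowest library of each of the 40 genes was set against the others by Dixon's test, in 160 groups of 5 or 6 libraries. In 13 cases 1 library stood apart, where chance alone gives about 1 in 20 groups. Slc7a11 had 50.5 CPM in 0% replicate 5, against 7.04 in the next library. The same library was low for 2 mu class transferases, Gstm1 at 48.8 CPM (next 69.9) and Gstm3 at 16.6 CPM (next 26.7).

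Library 1.0% replicate 5 stood above its group in Keap1 (62.9 CPM, next 55.1), Prdx6 (1481 CPM), Gstp1 (21.5 CPM, next 12.8) and Ftl1 (245 CPM, next 175). Control replicate 6 was high in Gstm4 (13.6 CPM, next 9.05) and Ftl1 (228 CPM, next 150.0), and control replicate 1 in Sod1 (25.4 CPM, next 20.5). Single high libraries were also found for Gclc at 2.5% (259 CPM, next 245), Tkt at 2.5% (57.7 CPM, next 46.7) and Gpx1 at 0.5% (195 CPM, next 181). Without 0% replicate 5, the change over the mean of the 3 broccoli diets was 0.067 log2 for Slc7a11, against −1.22 with it, and 0.13 for Gstm3, against 0.24 with it.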

How the results depend on the processing

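No paired analysis was possible because the labels give no replicate numbers shared between diets. The count of the 40 genes called was 0 in each of the 172 alternative fits over the 6 tests. The smallest adjusted p of any of them was 0.129 (slope) and 0.142 (2.5%), both with the 6 libraries rich in small intestine markers left out. Of 1210 alternative log2 changes of named genes, 1191 kept their direction and side of the threshold. The reversals were Gclc at 2.5% with library totals (−0.037) and, without the 6 libraries, Txnrd1 (0.16) and Slc7a11 (0.14) at 2.5%. Leaving out 1 library in turn gave −0.026 to 0.069 for Gclc at 2.5% and −0.053 to 0.053 for Txnrd1. For Slc7a11 the ranges were −1.48 to 0.042 (0.5%), −1.46 to 0.0023 (1.0%), −1.31 to 0.16 (2.5%) and −1.40 to 0.067 (mean of the 3 diets), the highest each time without 0% replicate 5. Library totals gave 0.085 for Nfe2l2, −0.12 for Keap1, 0.069 for Gclm, −0.071 for Txnrd1 and 0.071 for Srxn1 at 2.5%, 0.11 for Abcc1 and for Gclc at 0.5%, and 0.074 for Gclm over the 3 diets. Voom gave −0.68 (0.5%), −0.66 (1.0%) and −0.44 (2.5%) for Slc7a11. Calls were gained by Maff (1.23) and Sqstm1 (0.77) without the 6 libraries, and without 2.5% replicate 2 by Maff (1.01, adjusted p = 0.0439) and Gstm5 (0.60, adjusted p = 0.0439).

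Counts over all genes moved more. At 2.5% they were 17 in edgeR, 77 in DESeq2, 7 in voom, 7 with library totals, 0 with 2 diets alone, 5 without the animals numbered above 70, 121 without the 6 libraries, and 0 to 56 leaving out 1 library. For the slope they were 23, 52 in DESeq2, 9 in voom, 13 without those animals, 0 with ranked dose, 101 without the 6 libraries, and 0 to 56. For any difference they were 4, 65 in DESeq2, 0 in voom, 0 without those animals, 86 without the 6 libraries, and 0 to 35. The mean of the 3 diets gave 7 in DESeq2 against 0, and 0.5% gave 2 in DESeq2, 0 in voom, 0 with 2 diets alone, 0 without those animals, 0 without the 6 libraries and 0 to 2 against 1. Library totals gave 21 of 40 genes above 0 at 2.5%, 35 at 1.0% and 14 at 0.5%, against 25, 32 and 24. The median log2 change over all genes moved as well, to −0.07 at 2.5%, 0.03 at 1.0% and −0.09 at 0.5%. The median of the 40 genes was then 0.008, 0.12 and −0.03 in the same order. The cause of these shifts was not tested.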
